A study of Mus musculus with 12 samples.

Results

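Notch signalling was followed through 10 genes in 12 mouse libraries of polyadenylated RNA. These were the receptor genes Notch1 and Notch2, the ligand genes Jag1 and Dll4, Lfng, whose enzyme adds sugars to the receptors, and the target genes Hes1, Hey1, Hey2, Heyl and Nrarp. They were taken by symbol from a table of 41128 genes, with earlier results of these data known. Untreated hepatocytes (n = 3) and peritumoral hepatocytes (n = 3) came from the line Lats1tm1.1Jfm/RjoJ; Lats2tm1.1Jfm/RjoJ, which carries conditional alleles of the Hippo kinase genes Lats1 and Lats2. Both groups are titled WT, and no source used here states whether Cre recombinase was present. The tumours had been raised by hydrodynamic injection, at an age of 8 weeks, of SB11 (1 µg, a Sleeping Beauty transposase), myc-NICD (20 µg, a tagged intracellular domain of Notch) and myr-ha-Akt (4 µg, a membrane-bound form of the kinase Akt). They then grew for 8 weeks, while the labels list 8 weeks as the age of all 12 libraries. Control livers (n = 2) and livers taken 24 h (n = 2) and 48 h (n = 2) after 1 intraperitoneal injection of the liver toxin thioacetamide (TAA) came from CD-1 IGS mice, and what the controls received is not given. The labels name hepatocytes from a Percoll gradient as the material of all 12 libraries, whereas the design text of the series calls the TAA and control samples livers, the name kept here.

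In Notch signalling a ligand on one cell, such as Jagged1 (Jag1) or Delta-like 4 (Dll4), binds a receptor on its neighbour. The receptor is then cut by Adam10 and by gamma-secretase, and its intracellular domain moves to the nucleus, where it joins the DNA-binding protein Rbpj and a Mastermind-like co-activator to switch on genes of the Hes and Hey families of repressors and Nrarp, an ankyrin repeat protein that feeds back on the pathway. In the liver, Jag1 and Notch2 are needed for the building of bile ducts, and Dll4 is a ligand of blood vessel endothelium. A free intracellular domain, such as the one injected here, acts without a ligand. No label says which receptor or which species it came from. Counts are given per gene, so that plasmid RNA matching mouse Notch1 and RNA of the resident gene cannot be told apart.

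Rbpj binds DNA with the core letters TGGGAA, and windows of 250 bases before the transcription start were held for 7 of the 10 genes (RefSeq, GRCm38.p6), with none for Hes1, Hey1 and Heyl. A search for TGGGAA on either strand (TTCCCA where it lies on the reverse strand) found it in 2 of these 7 windows, against 21.6% of 32851 promoter windows of the same length. Lfng held 2 copies, as did 2.77% of all windows, the first from 135 to 130 bases before the start on the reverse strand and the other from 108 to 103 bases before it on the forward strand. Hey2 held 1 copy on the reverse strand, from 207 to 202 bases before the start. No match was found in the windows of Notch1, Notch2, Jag1, Dll4 and Nrarp. A match describes letters and not a bound site. The 2 windows with matches and that of Nrarp, whose rise was among the largest, are shown 5′ to 3′ along the strand of the gene, with TGGGAA or TTCCCA in capitals.
Lfng, plus strand, chr5:140607091-140607340: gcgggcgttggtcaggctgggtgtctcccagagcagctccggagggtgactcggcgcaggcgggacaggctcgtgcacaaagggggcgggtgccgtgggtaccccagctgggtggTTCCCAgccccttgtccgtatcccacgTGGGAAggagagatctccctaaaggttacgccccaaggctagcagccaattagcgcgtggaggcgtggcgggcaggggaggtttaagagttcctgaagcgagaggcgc
Hey2, minus strand, chr10:30842784-30843033: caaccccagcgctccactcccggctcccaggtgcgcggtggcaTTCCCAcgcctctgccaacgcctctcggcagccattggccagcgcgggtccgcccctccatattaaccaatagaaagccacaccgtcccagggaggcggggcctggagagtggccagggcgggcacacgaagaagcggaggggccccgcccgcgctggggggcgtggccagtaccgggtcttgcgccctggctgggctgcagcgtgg
Nrarp, plus strand, chr2:25180508-25180757: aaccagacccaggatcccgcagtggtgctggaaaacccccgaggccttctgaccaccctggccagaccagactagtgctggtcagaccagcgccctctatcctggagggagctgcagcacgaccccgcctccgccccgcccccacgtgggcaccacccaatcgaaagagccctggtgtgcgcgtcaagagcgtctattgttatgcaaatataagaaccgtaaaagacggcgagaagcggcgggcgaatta

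Total counts ran from 9640845 to 18522324 per library, so that 3 counts, the floor of detection used here, stand for 0.116 to 0.318 CPM (counts scaled to a common library total with TMM factors over the 12 libraries), for counting error only. Whether the libraries of a group stem from different animals is not labelled. The p-values then measure the spread between libraries, which may be technical. In the peritumoral group, however, replicate 2 differed from replicates 1 and 3 in Xist, given below, as libraries of the same animal would not. Peritumoral replicate 2 stood apart from the other hepatocyte libraries. Its summed level of 10 bile duct markers was 7400 CPM, against 1060 and 773 CPM in peritumoral replicates 1 and 3. Of these sums Spp1 alone held 6870, 935 and 684 CPM. The summed level of 9 hepatocyte markers was 58300 CPM in replicate 2, against 105000 and 140000 CPM. Of these Alb alone held 44700, 81900 and 121000 CPM. Among the 6 hepatocyte libraries, peritumoral replicate 2 alone held Xist, an RNA of the inactive X chromosome, at 378 CPM. The others held at most 0.173 CPM, while all 6 liver libraries held 245 to 454 CPM. The main peritumoral values are therefore given with and without that replicate.

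Around tumours, 8 of the 9 members that could be tested rose, led by the target genes Heyl and Nrarp, and Notch2 alone did not pass. After TAA the ligand genes Jag1 and Dll4, Lfng, Heyl and Nrarp rose at both times and Hey1 at 48 h, while Notch1, Notch2 and Hes1 did not pass at either time. Thus 5 genes (Jag1, Dll4, Lfng, Heyl and Nrarp) rose in all 3 comparisons. The share of all genes that did so was not counted, so this number is a description. A gene counts as risen or fallen here at a Benjamini-Hochberg adjusted p under 0.05, over all genes tested, in the quasi-likelihood test of edgeR.

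In the peritumoral comparison 8 members were higher and 0 lower, against 19% of 13442 tested genes higher and 10.2% lower. Their median log2 fold change was 2.29, against -0.02 over all tested genes. At 24 h after TAA 5 of 9 were higher and 0 lower, against 21.3% and 20.5% of 13497 tested genes, with a median of 1.74 against 0.02. At 48 h 6 of 9 were higher and 0 lower, against 25% and 23.9% of the same genes, with a median of 1.98 against -0.03. Hey2 reached the count filter in too few libraries to be tested in any of these comparisons. Of the members tested, Hey1, Heyl and Nrarp reached that filter only through the peritumoral libraries. In livers Lfng, Hey1, Heyl and Nrarp reached it only through the TAA libraries, and Hey1 only through those at 48 h. Such a filter favours a rise of those genes, although Hey1 did not pass at 24 h, and the counts and medians are a description. The 2 TAA comparisons share the control livers. With all 12 libraries in 1 fit, the members that rose were Jag1, Dll4 and Lfng at 24 h and Jag1 and Lfng at 48 h. Around tumours that fit gave 9 members higher, Hey2 among them, and Notch2 alone did not pass (adjusted p = 0.452).

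**Figure D1:**
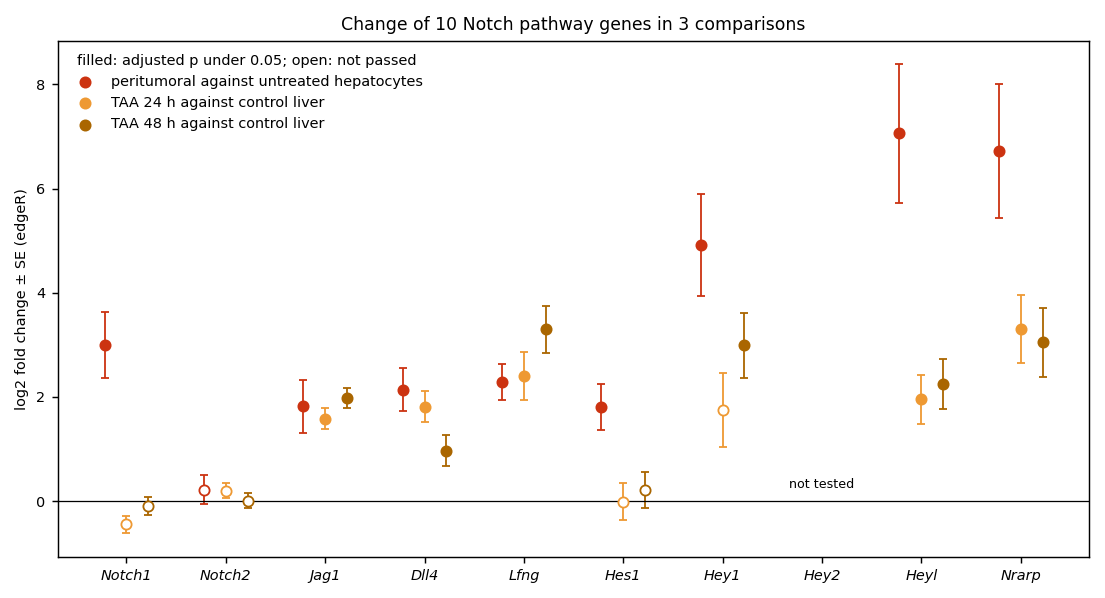
Log2 fold change of each gene (vertical axis, ± SE, edgeR) in peritumoral against untreated hepatocytes (n = 3 each) and in livers 24 h and 48 h after TAA against control livers (n = 2 each). Filled points passed an adjusted p of 0.05; Heyl at 7.06 and Nrarp at 6.72 are the highest peritumoral points, and Notch2 lies near 0 in all 3 comparisons.

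Of the receptor genes, Notch1 (ENSMUSG00000026923, chromosome 2, positions 26457903 to 26516663, minus strand of GRCm38) rose around tumours. It stood at 20.5, 18.4 and 24.2 CPM in untreated replicates 1, 2 and 3, and at 73.8, 331 and 75.8 CPM in peritumoral replicates 1, 2 and 3. All 3 peritumoral libraries lay above all untreated ones, with replicate 2 far above its group. The log2 fold change was 3.0 ± 0.64 (SE; adjusted p = 0.0168), an 8.01-fold change of the fitted means, and 1.93 ± 0.15 (adjusted p = 0.00166) without peritumoral replicate 2.

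In livers Notch1 stood at 38.6 and 46.4 CPM in controls, 34.1 and 28.6 CPM at 24 h and 43.8 and 34.5 CPM at 48 h. The 24 h values lay below both controls and the 48 h values overlapped them. Neither change passed, at -0.45 ± 0.17 (adjusted p = 0.077) and -0.09 ± 0.17 (adjusted p = 0.675). Without scaling factors the values were 0.07 and 0.62, but the median of all genes then moved to 0.53 and 0.68, so that relative to it Notch1 was still lower, at -0.47 and -0.06. The 48 h value then passed (adjusted p = 0.0232), as did Notch2 at both times (0.71 and 0.72) and Hes1 at 48 h (0.91), values that were 0.04 for Notch2 and 0.23 for Hes1 at 48 h relative to that median.

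Notch2 (ENSMUSG00000027878, chromosome 3, positions 98013527 to 98150361, plus strand), the receptor gene tied to bile duct formation, did not pass in any of these comparisons. It stood at 56, 59.1 and 63 CPM in untreated and at 50.1, 96.5 and 51.9 CPM in peritumoral hepatocytes. Only peritumoral replicate 2 lay above the untreated range, and the other peritumoral libraries lay below it. The log2 fold change was 0.22 ± 0.28 (adjusted p = 0.586) with that library and -0.12 ± 0.13 (adjusted p = 0.523) without it. In livers Notch2 stood at 92.7 and 73.1 CPM in controls, 93.6 and 97.7 CPM at 24 h and 82 CPM in both 48 h libraries (0.20 ± 0.14, adjusted p = 0.302, and 0.01 ± 0.14, adjusted p = 0.972).

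**Figure D2:**
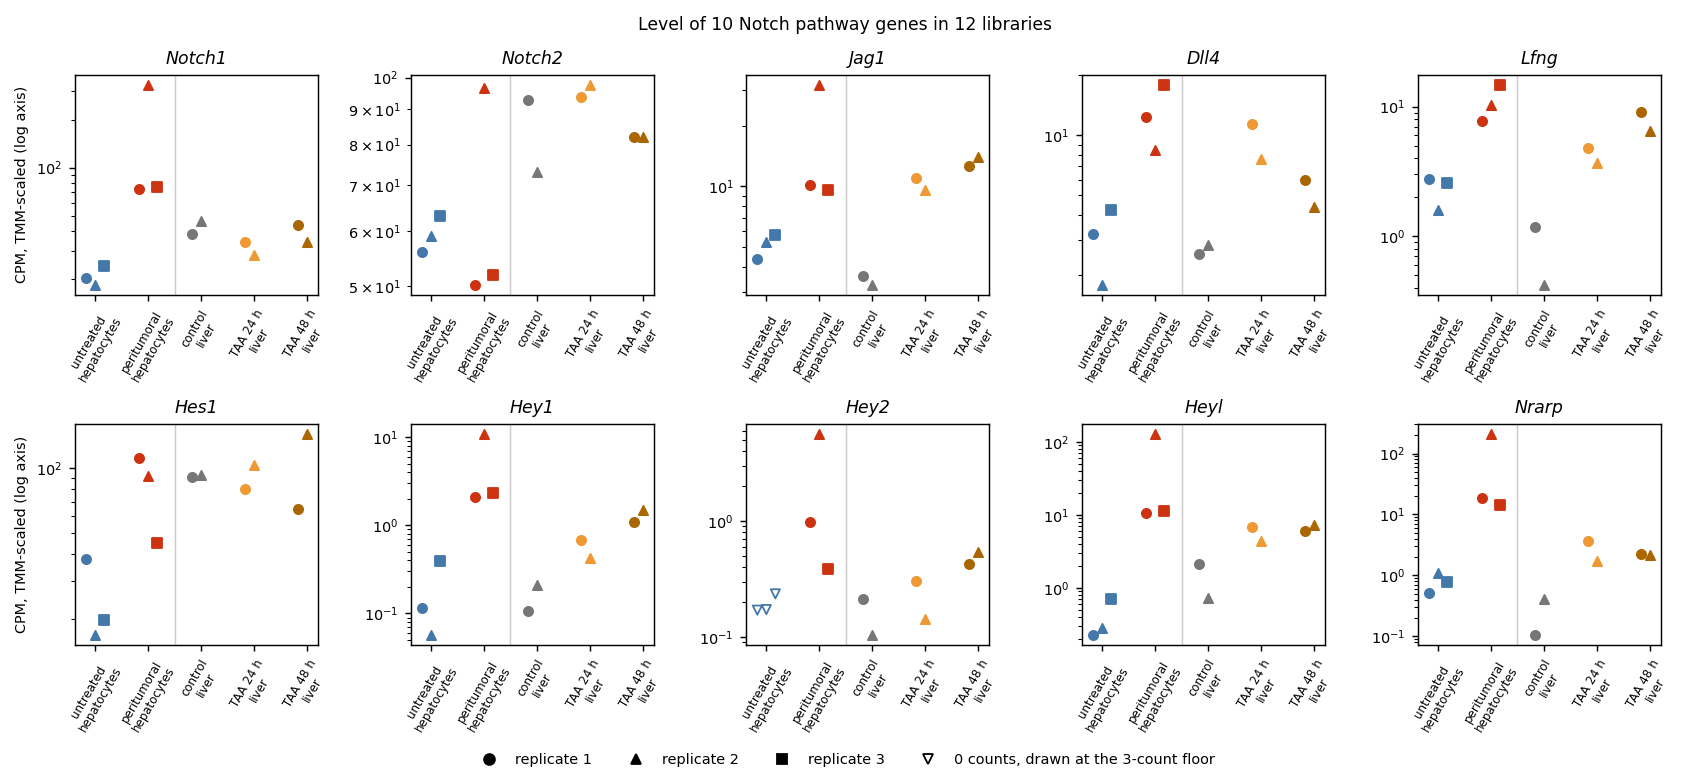
Level of each gene in the 12 libraries in TMM-scaled CPM (vertical axis, logarithmic, with its own range in each panel); each point is 1 library and its shape the replicate number. Open triangles mark the untreated libraries with 0 counts of Hey2, and peritumoral replicate 2 is the highest peritumoral point for Notch1, Notch2, Jag1, Hey1, Hey2, Heyl and Nrarp, but not for Dll4, Lfng and Hes1.

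The ligand genes Jag1 and Dll4 rose in all 3 comparisons. Jag1 (ENSMUSG00000027276, chromosome 2, positions 137081456 to 137116644, minus strand) stood at 4.37, 5.32 and 5.71 CPM in untreated hepatocytes and at 10.2, 31.9 and 9.59 CPM in peritumoral ones. The groups did not overlap, and replicate 2 was again the highest. Jag1 rose by 1.82 ± 0.51 on the log2 scale (adjusted p = 0.0379), and 1.04 ± 0.20 (adjusted p = 0.0161) without that library. The peritumoral call was lost when any 1 of the untreated libraries was left out (adjusted p = 0.0856 to 0.122). Livers held 3.61 and 3.24 CPM of Jag1 in controls, 11 and 9.59 CPM at 24 h and 12.6 and 14 CPM at 48 h. Every TAA library lay above both controls, and the rises were 1.58 ± 0.20 (adjusted p = 0.00175) and 1.98 ± 0.20 (adjusted p = 0.000569).

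Dll4 (ENSMUSG00000027314, chromosome 2, positions 119325784 to 119335962, plus strand), the endothelial ligand, had its lowest peritumoral value in replicate 2. It stood at 3.18, 1.77 and 4.22 CPM in untreated and 12.4, 8.44 and 18 CPM in peritumoral hepatocytes. The groups did not overlap, and the log2 fold change was 2.14 ± 0.41 (adjusted p = 0.0121), and 2.43 ± 0.37 (adjusted p = 0.0067) without replicate 2. Control livers held 2.55 and 2.82 CPM, livers at 24 h 11.4 and 7.58 CPM and livers at 48 h 6 and 4.39 CPM. The TAA libraries lay above the controls at both times, by 1.81 ± 0.30 (adjusted p = 0.00447) and 0.97 ± 0.30 (adjusted p = 0.0355). The 48 h call was lost when any of the 4 libraries compared was left out (adjusted p = 0.0522 to 0.166).

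Lfng (ENSMUSG00000029570, chromosome 5, positions 140607320 to 140615545, plus strand) encodes Lunatic fringe, which favours Delta-like over Jagged ligands. It stood at 2.78, 1.6 and 2.58 CPM in untreated and at 7.68, 10.2 and 14.8 CPM in peritumoral hepatocytes. The groups did not overlap, and replicate 2 lay between the other peritumoral libraries. The log2 fold change of 2.29 ± 0.35 (adjusted p = 0.00632) was 2.37 ± 0.38 (adjusted p = 0.00811) without replicate 2. In livers Lfng stood at 1.17 and 0.417 CPM in controls, 4.83 and 3.65 CPM at 24 h and 9.12 and 6.48 CPM at 48 h. All 4 TAA libraries lay above the controls, by 2.40 ± 0.46 (adjusted p = 0.00777) and 3.30 ± 0.45 (adjusted p = 0.00158). These sizes depended on the controls, at 3.30 and 4.17 without control replicate 1 and 1.82 and 2.69 without control replicate 2, with both calls kept. Lfng was the only member whose peritumoral call held when any 1 of the 6 hepatocyte libraries was left out.

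Among the target genes Hes1 (ENSMUSG00000022528, chromosome 16, positions 30064384 to 30067796, plus strand) had the highest level per kilobase of exon in all 5 groups. It stood at 38, 16.8 and 19.8 CPM in untreated and at 112, 91.7 and 44.9 CPM in peritumoral hepatocytes. The groups did not overlap, although peritumoral replicate 3 and untreated replicate 1 were close. Hes1 rose by 1.80 ± 0.44 on the log2 scale (adjusted p = 0.0251). The call was lost without untreated replicate 2 or 3 or without peritumoral replicate 1 or 2 (adjusted p = 0.0521 to 0.0907). Livers held 91.3 and 93.2 CPM in controls, 80.1 and 104 CPM at 24 h and 65 and 144 CPM at 48 h. The 48 h libraries lay on either side of the controls, and neither change passed (-0.01 ± 0.35, adjusted p = 0.977, and 0.21 ± 0.35, adjusted p = 0.649). Without 48 h replicate 1 the 48 h value was 0.67 (adjusted p = 0.0453), and without 48 h replicate 2 it was -0.49 (adjusted p = 0.123).

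Heyl (ENSMUSG00000032744, chromosome 4, positions 123233556 to 123249875, plus strand) had the largest peritumoral fold change of the 9 tested members. It stood at 0.227, 0.286 and 0.704 CPM in untreated and at 10.6, 128 and 11.5 CPM in peritumoral hepatocytes. Every peritumoral library lay far above the untreated ones, and replicate 2 was 11.6 times the mean of the other peritumoral libraries. The log2 fold change was 7.06 ± 1.33 (adjusted p = 0.0117), and 4.90 ± 0.41 (adjusted p = 0.00171) without replicate 2. Control livers held 2.12 and 0.731 CPM, livers at 24 h 6.82 and 4.36 CPM and livers at 48 h 6 and 7.36 CPM. Both times lay above the controls, by 1.95 ± 0.48 (adjusted p = 0.0186) and 2.25 ± 0.48 (adjusted p = 0.0086). The 24 h call was lost without control replicate 2 or 24 h replicate 1 (adjusted p = 0.0572 and 0.107). The sizes were 2.91 and 3.17 without control replicate 1, and 1.36 and 1.62 without control replicate 2.

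Nrarp (ENSMUSG00000078202, chromosome 2, positions 25180758 to 25183339, plus strand), the feedback gene, stood at 0.511, 1.09 and 0.782 CPM in untreated and at 18.8, 207 and 14.4 CPM in peritumoral hepatocytes. Here too all peritumoral libraries lay above the untreated ones, and replicate 2 was 12.5 times the mean of the other peritumoral libraries. Nrarp rose by 6.72 ± 1.29 on the log2 scale (adjusted p = 0.0124), and 4.46 ± 0.34 (adjusted p = 0.00166) without replicate 2. In livers Nrarp went from 0.106 and 0.417 CPM in controls to 3.68 and 1.72 CPM at 24 h and 2.28 and 2.16 CPM at 48 h. These rises of 3.30 ± 0.65 (adjusted p = 0.0085) and 3.05 ± 0.66 (adjusted p = 0.00914) rest on 5 counts in the controls, and both were lost without control replicate 1 (2.64 and 2.37, adjusted p = 0.0504 and 0.0601). Without control replicate 2 they were 4.51 and 4.23, and the 24 h value was 2.66 (adjusted p = 0.047) without 24 h replicate 1. An annotated gene on the opposite strand, Gm38287, covers 79.4% of the exon bases of Nrarp. The counts hold no gene under the symbol Gm38287. Since the strand setting of the counting is not given, reads of that gene might be counted for Nrarp.

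Hey1 and Hey2, repressors of the same family as Heyl, had few counts outside the peritumoral group, at most 22 in a library. Hey1 (ENSMUSG00000040289, chromosome 3, positions 8663359 to 8667256, minus strand) stood at 0.114, 0.0572 and 0.391 CPM in untreated and at 2.08, 10.8 and 2.32 CPM in peritumoral hepatocytes. Its log2 fold change was 4.91 ± 0.98 (adjusted p = 0.013), and 3.72 ± 0.59 (adjusted p = 0.00735) without replicate 2 and 5.85 ± 1.23 (adjusted p = 0.0283) without untreated replicate 3. In livers Hey1 stood at 0.106 and 0.209 CPM in controls, 0.69 and 0.429 CPM at 24 h and 1.1 and 1.48 CPM at 48 h. The TAA libraries lay above the controls at both times, but only the 48 h change passed (1.74 ± 0.71, adjusted p = 0.0849, against 2.99 ± 0.63, adjusted p = 0.00717), and the controls held 3 counts of the gene in all. Without control replicate 1 that call was lost (adjusted p = 0.0541).

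Hey2 (ENSMUSG00000019789, chromosome 10, positions 30832359 to 30842801, minus strand) had 0 counts in all 3 untreated libraries and 17, 145 and 7 counts in peritumoral replicates 1, 2 and 3. Its peritumoral mean of 2.33 CPM was at least 37.1-fold higher than a floor of 3 counts over the untreated group, a bound that rests largely on replicate 2. Without replicate 2 the mean was 0.684 CPM, at least 10.9-fold higher than that floor. Control livers held 2 and 1 counts, livers at 24 h 4 and 2, and livers at 48 h 5 and 8. These liver counts are too few to be compared.

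Leaving out a library of the untreated group moved the peritumoral calls most. Without untreated replicate 1 the members that rose were Lfng and Hes1, and without untreated replicate 2 they were Dll4 and Lfng, while the number of all genes higher went from 2560 to 1293 and 1364. The adjusted p of the members lost ran from 0.0515 to 0.122, and their fold changes kept their direction. Without peritumoral replicate 2 the members that rose were Notch1, Jag1, Dll4, Lfng, Hey1, Heyl and Nrarp, and Hes1 was lost (adjusted p = 0.0521). DESeq2 gave no adjusted p for Heyl and Nrarp and called the other 6.

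Peritumoral replicate 2 did not stand apart for every member. It was 4.43 times the mean of the other peritumoral libraries for Notch1, 3.23 times for Jag1, 4.93 times for Hey1 and 8.21 times for Hey2. For Hes1 it was 1.17 times, for Lfng 0.905 times and for Dll4 0.554 times that mean. The mean of peritumoral replicates 1 and 3 was itself above the untreated mean, by 27.2-fold for Heyl, 20.9-fold for Nrarp, 11.7-fold for Hey1, 4.98-fold for Dll4, 4.85-fold for Lfng, 3.56-fold for Notch1, 3.16-fold for Hes1 and 1.92-fold for Jag1. For Notch2 it was 0.859 times the untreated mean. Akt was also injected, in a form whose isoform no label gives, and the Akt1 gene stood at 180 CPM in replicate 2 and between 58.4 and 98.9 CPM in the other 5 hepatocyte libraries.

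In the peritumoral group, markers of other cell types of the liver were higher along with the Notch genes. Over all tested genes 19% were higher and 10.2% lower. Without peritumoral replicate 2, 2478 genes were higher and 626 lower. Of 8 tested bile duct markers 7 were higher (7 without replicate 2), and Sctr was at 0 in every untreated library. The summed level of the list ran from 44.8 to 79.8 CPM in untreated and from 773 to 7400 CPM in peritumoral libraries. In the peritumoral libraries Spp1 alone held 684 to 6870 CPM of these sums. All 13 endothelial markers were higher (12 without replicate 2), with sums of 253 to 322 against 863 to 1680 CPM. Of 11 stellate and stromal markers 9 were higher (10 without replicate 2), with sums of 72.7 to 130 against 810 to 1890 CPM, and of 8 macrophage markers 7 were higher (7 without replicate 2), with sums of 283 to 382 against 1320 to 3750 CPM. None of 9 hepatocyte markers passed in either direction (0 without replicate 2 as well), and 1 had an unadjusted p under 0.05. The part of these cells, or of tumour cells carried along, in the values of the Notch genes was not tested. In such bulk libraries more cells of a type and more RNA per cell cannot be told apart. Nor can RNA of tumour cells and RNA of hepatocytes beside the tumours.

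**Figure D3:**
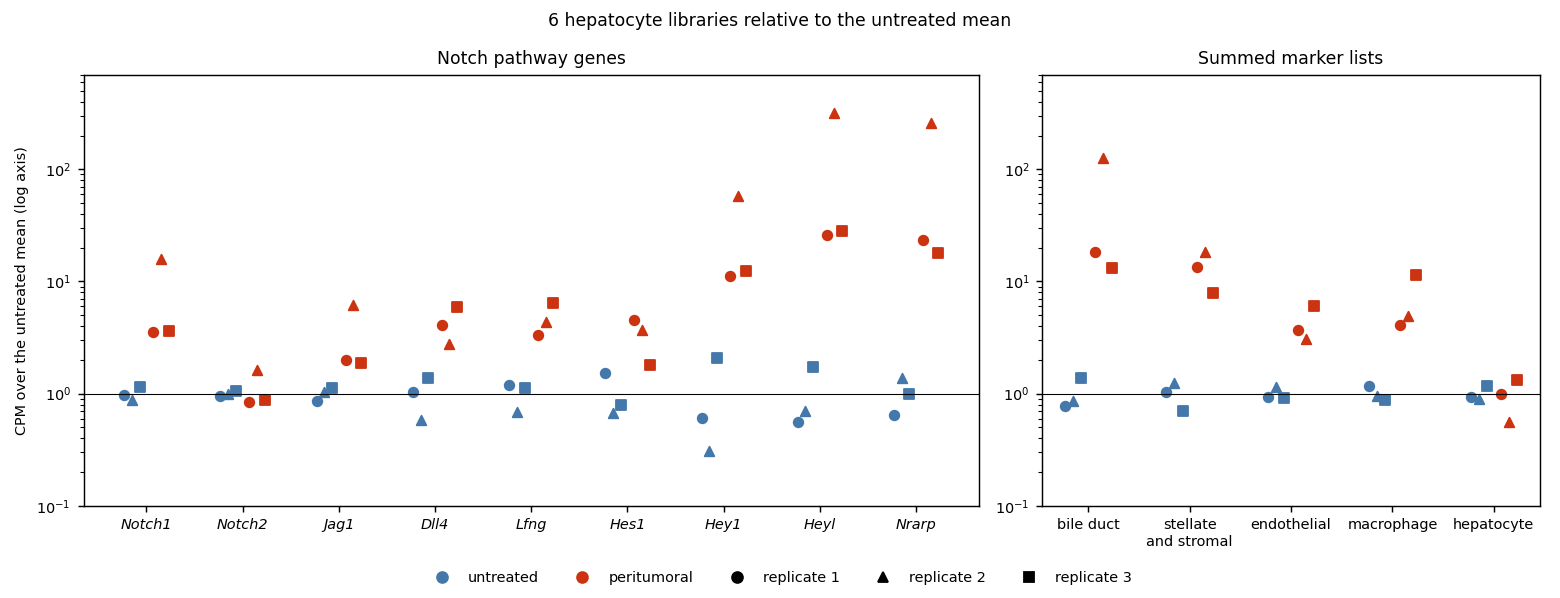
Level of 9 Notch pathway genes (left) and summed level of 5 marker lists (right) in each of the 6 hepatocyte libraries, divided by the untreated mean (vertical axis, logarithmic); colour marks the group and shape the replicate. Peritumoral replicate 2 (triangles) is highest for the bile duct list and for Notch1, Jag1, Hey1, Heyl and Nrarp, and lowest of its group for Dll4 and for the endothelial and hepatocyte lists.

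Most markers of endothelial and of stellate and stromal cells rose after TAA as well, and at 48 h all those of macrophages, against 21.3% of all genes higher at 24 h and 25% at 48 h. Endothelial sums were 217 to 260 CPM in controls, 420 to 558 CPM at 24 h and 450 to 555 CPM at 48 h, with 9 and 11 of 13 markers higher. Stellate and stromal sums were 144 to 235, 534 to 553 and 1370 to 1930 CPM, with 10 and 11 of 11 higher, and macrophage sums 76.1 to 169, 351 to 456 and 720 to 1120 CPM, with 4 and 8 of 8 higher. Of 7 tested bile duct markers 3 were higher at 24 h, and 2 were higher and 1 lower at 48 h. The bile duct sums were 90.1 to 92.1, 127 to 139 and 179 to 265 CPM. Of these Spp1 alone held 35.9 CPM in each control, 77.5 and 79.8 CPM at 24 h and 126 and 197 CPM at 48 h. Hepatocyte sums were 245000 to 256000 CPM in controls, 121000 to 139000 CPM at 24 h and 101000 to 106000 CPM at 48 h. Of these Alb alone held 210000 and 211000, 101000 and 115000, and 80100 and 80700 CPM. At each time 4 of 9 hepatocyte markers were lower, against 20.5% of all genes at 24 h and 23.9% at 48 h. The part of all these cell types in the values of the Notch genes was not tested.

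Between 24 h and 48 h no member passed, with 0 of 9 higher and 0 lower in edgeR, against 4.96% and 2.36% of all tested genes. Unadjusted p-values under 0.05 were found for Dll4, Lfng and Hey1, and DESeq2 also called 0. Dll4 was lower at 48 h in both libraries (-0.84 ± 0.28, adjusted p = 0.114), while Lfng (0.91 ± 0.37, adjusted p = 0.171) and Hey1 (1.24 ± 0.46, adjusted p = 0.141) were higher in both. The adjusted p of the other 6 lay between 0.218 and 0.781.

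Whether the peritumoral and the TAA responses differed was tested in a fit of all 12 libraries, in which the experiments differ also in mouse stock and in Xist, held by all 6 liver libraries but by only 1 of the 6 hepatocyte libraries at more than 0.173 CPM. Of the 10 members only Notch1 passed, with a peritumoral response higher by 3.32 ± 0.78 on the log2 scale than that at 24 h (adjusted p = 0.0182) and by 3.01 ± 0.78 than that at 48 h (adjusted p = 0.0322). Over all genes 9.03% were higher and 12.1% lower in the first of these tests, and 6.71% and 8.57% in the other. Without peritumoral replicate 2 the differences for Notch1 were 2.19 ± 0.23 (adjusted p = 0.00149) and 1.88 ± 0.23 (adjusted p = 0.0024). Each call was lost without either control liver or either TAA liver of that time (adjusted p = 0.0549 to 0.0763 at 24 h and 0.0844 to 0.127 at 48 h), and the 48 h call also without untreated replicate 1 or 2 (adjusted p = 0.0717 and 0.0769). Heyl differed by 4.98 ± 1.62 (adjusted p = 0.0535) and 4.72 ± 1.62 (adjusted p = 0.0743), and by 2.76 ± 0.69 (adjusted p = 0.0184) and 2.51 ± 0.69 (adjusted p = 0.0297) without peritumoral replicate 2. The response of Jag1 was lower around tumours than at 48 h without that library and not with it (-1.08 ± 0.26, adjusted p = 0.0205, against -0.25 ± 0.64, adjusted p = 0.824). Heyl was also called against 24 h and 48 h without peritumoral replicate 1 (adjusted p = 0.028 and 0.0435) or 3 (adjusted p = 0.0305 and 0.0414), and the response of Hes1 against 24 h passed on leaving out untreated replicate 1 (adjusted p = 0.0499) or peritumoral replicate 3 (adjusted p = 0.0469).

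Per kilobase of exon, where levels of different genes can be set side by side, Hes1 led in every group, at 12.2 ± 5.63 CPM per kb (SD, n = 3) in untreated and 40.8 ± 17 in peritumoral hepatocytes, and at 45.3 ± 0.675 in control livers (n = 2), 45.1 ± 8.17 at 24 h and 51.3 ± 27.4 at 48 h. Notch2 came next in untreated hepatocytes (5.50 ± 0.323) and in the 3 liver groups (7.69 ± 1.29, 8.87 ± 0.275 and 7.61 ± 0.00261), with no overlap of libraries with Hes1 above it or with the gene below it. Notch1 was the third in untreated hepatocytes (1.48 ± 0.21) and control livers (2.99 ± 0.388). In peritumoral hepatocytes the order after Hes1 was Nrarp, Notch1, Heyl, Notch2, Lfng, Dll4, Jag1, Hey1 and Hey2, and each neighbouring pair overlapped, with 31.1 ± 42.7 CPM per kb for Nrarp and 9.77 ± 13.2 for Heyl. Over replicates 1 and 3 alone the order was Hes1, Nrarp, Notch1, Notch2, Lfng, Dll4, Heyl, Jag1, Hey1 and Hey2, with 6.43 ± 1.19 for Nrarp and 2.16 ± 0.12 for Heyl (n = 2), and only Notch2, Lfng and Dll4 overlapped with a neighbour. Untreated hepatocytes ended with Nrarp (0.307 ± 0.111), Heyl (0.0794 ± 0.0508), Hey1 (0.0574 ± 0.0547) and Hey2 at 0. Lfng, Jag1 and Dll4 overlapped in the middle of that order, between 0.927 and 0.794 CPM per kb.

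Most of the remaining genes of the pathway did not pass around tumours. Of 51 further components 47 were tested there, of which 6 rose, 2 fell and 39 did not pass (median 0.20), and 7 rose and 1 fell without peritumoral replicate 2. At 24 h after TAA 12 rose, 7 fell and 29 did not pass (median -0.04), and at 48 h 14 rose, 9 fell and 25 did not pass (median 0.16). The shares of all tested genes that rose and fell were 19% and 10.2% around tumours, 21.3% and 20.5% at 24 h and 25% and 23.9% at 48 h.

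The receptor genes Notch3 and Notch4 rose in all 3 comparisons. Notch3, a receptor of vascular smooth muscle and pericytes, stood at 0.494 ± 0.144 CPM in untreated and 3.75 ± 1.21 CPM in peritumoral hepatocytes (2.99 ± 0.42, adjusted p = 0.00541). Notch4, a receptor of endothelium, stood at 2.41 ± 0.625 and 9.90 ± 1.41 CPM (2.10 ± 0.28, adjusted p = 0.00461). After TAA Notch3 rose by 2.04 ± 0.37 (adjusted p = 0.00673) and 2.38 ± 0.37 (adjusted p = 0.00272) and Notch4 by 1.94 ± 0.52 (adjusted p = 0.0257) and 1.91 ± 0.52 (adjusted p = 0.0228). Of the other ligand genes, Dll1 passed in none of the 3 (0.56 ± 0.37, adjusted p = 0.3, around tumours, -0.16 ± 0.23, adjusted p = 0.595, at 24 h and 0.17 ± 0.23, adjusted p = 0.572, at 48 h), but rose around tumours without peritumoral replicate 2 (0.91 ± 0.23, adjusted p = 0.037). Jag2, another Jagged ligand gene, did not pass at 24 h (3.15 ± 1.53, adjusted p = 0.127) and rose at 48 h (4.19 ± 1.36, adjusted p = 0.0324), to 1.08 ± 1.05 CPM. Without peritumoral replicate 2 the peritumoral values were 2.92 ± 0.44 (adjusted p = 0.00685) for Notch3 and 2.15 ± 0.29 (adjusted p = 0.00492) for Notch4.

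Of 18 genes for the processing of ligands and receptors 2 rose and 1 fell around tumours. Neurl1b, a ubiquitin ligase that acts on Notch ligands, went from 0.166 ± 0.115 to 6.26 ± 1.46 CPM (5.23 ± 0.50, adjusted p = 0.00267), and Mfng, the fringe relative of Lfng, from 0.574 ± 0.106 to 3.66 ± 1.12 CPM (2.71 ± 0.37, adjusted p = 0.00503), both calls kept without replicate 2 (5.27 ± 0.52, adjusted p = 0.00215, and 2.79 ± 0.40, adjusted p = 0.00611). After TAA 4 rose and 3 fell at 24 h and 4 rose and 5 fell at 48 h. Psen2, a catalytic subunit of gamma-secretase, fell from 240 ± 36.7 CPM in controls to 67.9 ± 14.3 CPM at 24 h (-1.83 ± 0.19, adjusted p = 0.000913) and 61.2 ± 1.83 CPM at 48 h (-1.95 ± 0.19, adjusted p = 0.000494). Adam10, the protease of the first cut, stood at 33.5 ± 5.64 CPM in controls and 82.6 ± 5.58 CPM at 48 h (1.33 ± 0.14, adjusted p = 0.000724), and Mib1, a ubiquitin ligase for ligands, fell by 0.52 ± 0.12 at 24 h (adjusted p = 0.0161). From 24 h to 48 h Neurl1b rose from 1.05 ± 0.679 to 17.4 ± 10.9 CPM (4.07 ± 0.60, adjusted p = 0.0217), as did Adam10 (0.77 ± 0.14, adjusted p = 0.0319).

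In the nuclear complex Rbpj did not pass around tumours (0.47 ± 0.31, adjusted p = 0.299). Of 15 such genes Maml2, a Mastermind-like co-activator, rose from 0.621 ± 0.29 to 7.53 ± 3.52 CPM (3.67 ± 0.53, adjusted p = 0.00573, and 3.27 ± 0.44, adjusted p = 0.00503, without replicate 2), and Kat2a, a histone acetyltransferase, fell by 0.53 ± 0.14 (adjusted p = 0.0305), a call lost without peritumoral replicate 2 (adjusted p = 0.0865). At 24 h and 48 h after TAA 3 and 4 rose and 3 and 3 fell, with Hdac1, a histone deacetylase, higher by 0.75 ± 0.16 (adjusted p = 0.0103) and 0.90 ± 0.16 (adjusted p = 0.00407).

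Among 8 negative regulators, Dtx1, a Deltex protein, was the only one to rise around tumours, to 10.7 ± 15.3 CPM from 0.368 ± 0.293 CPM (5.0 ± 1.37, adjusted p = 0.0362), while Dtx3 did not pass (1.57 ± 0.55, adjusted p = 0.074). Without replicate 2 Dtx1 rose by 2.53 ± 0.55 (adjusted p = 0.0227), and Dtx3 was at 0.76 ± 0.32 (adjusted p = 0.135). After TAA Itch, a ubiquitin ligase, fell by 0.86 ± 0.17 (adjusted p = 0.00909) and 0.74 ± 0.17 (adjusted p = 0.0125), and Numbl, a relative of Numb, rose by 2.42 ± 0.76 (adjusted p = 0.0396) and 3.13 ± 0.71 (adjusted p = 0.01) from 0.158 ± 0.0763 CPM.

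Of the further target genes Sox9, a factor of bile duct cells, stood at 18.1 ± 8.71 CPM in untreated and 56.6 ± 54.6 CPM in peritumoral hepatocytes and did not pass (1.72 ± 0.73, adjusted p = 0.12), nor did Ccnd1, which encodes cyclin D1 (1.98 ± 0.81, adjusted p = 0.111). Peritumoral replicates 1, 2 and 3 held 32.9, 119 and 17.9 CPM of Sox9, the last of these within the untreated range of 10.2 to 27.5 CPM, and without replicate 2 the values were 0.60 ± 0.42 (adjusted p = 0.341) for Sox9 and 1.10 ± 0.73 (adjusted p = 0.314) for Ccnd1. After TAA Sox9 rose from 8.82 ± 2.87 to 32.9 ± 8.45 CPM at 24 h (1.89 ± 0.32, adjusted p = 0.00509) and stood at 12.1 ± 3.54 CPM at 48 h, not passing against controls (0.49 ± 0.32, adjusted p = 0.245) and lower than at 24 h (-1.40 ± 0.31, adjusted p = 0.0476). Ccnd1 rose by 1.55 ± 0.29 (adjusted p = 0.00709) at 24 h and 1.48 ± 0.29 (adjusted p = 0.00625) at 48 h.

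Between 24 h and 48 h the other genes of smallest p in each role, Dll1, Jag2, Ep300, Maml2, Dtx1, Numbl and Myc, did not pass, with adjusted p from 0.21 (Ep300) to 0.665 (Myc).

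**Figure D4:**
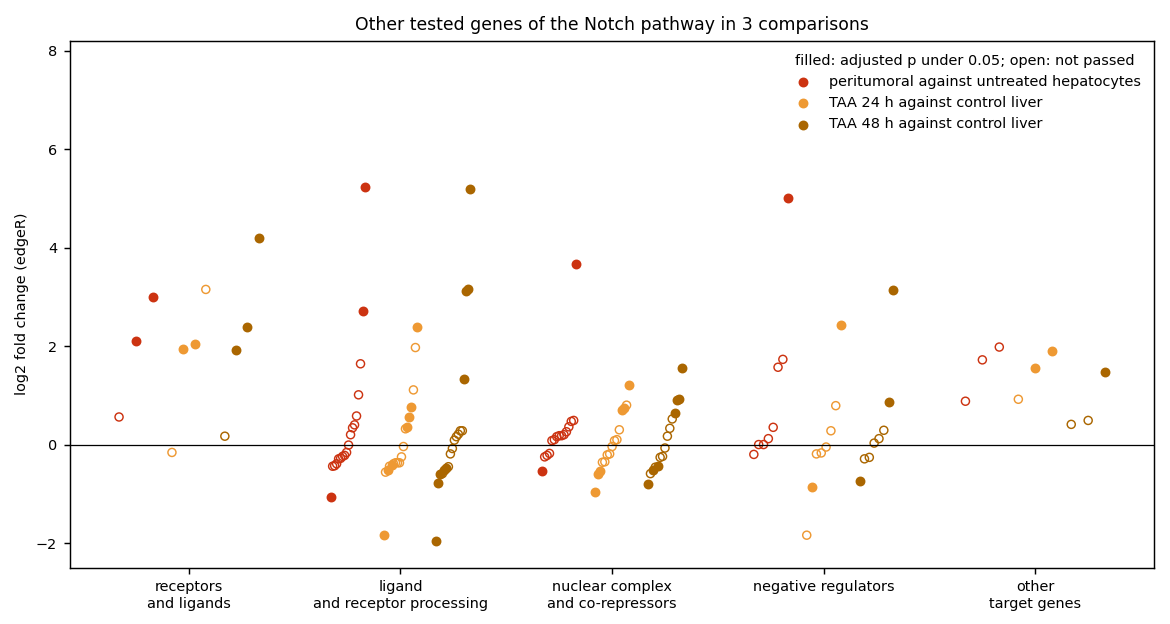
Log2 fold change (vertical axis, edgeR) of the other tested genes of the Notch pathway, in 5 groups by role, for the peritumoral, 24 h and 48 h comparisons; each point is 1 gene, filled where the adjusted p was under 0.05. Most points lie near 0, and those far above it include Neurl1b at 5.23 and Dtx1 at 5.0 around tumours and Neurl1b at 5.18 at 48 h after TAA.

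The genes whose pattern over the 12 libraries was most like that of 4 members were sought among 10922 genes, by Pearson's r of log2 CPM with each library set against the mean of its own experiment. The libraries share their depth and cell makeup, so r is a description. For Notch1 the nearest were Fndc7, Pald1 and Dcx (r = 0.984, 0.981 and 0.981, and 0.952, 0.953 and 0.946 over the 11 libraries without peritumoral replicate 2). For Jag1 they were Pik3r3, Lrrc8b and Tspan3 (0.985, 0.979 and 0.978). For Heyl they were Ccdc148, Tead2 and Bicc1 (0.989, 0.988 and 0.984). Hes1 had less close neighbours, Cyr61, Shisa2 and Igfbp6 (0.905, 0.904 and 0.891).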

How the data were processed

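Counts per gene for 41128 genes, as the authors deposited them, were the input of every test. A table of RPM values was not used. STAR, DESeq2, mm10 and GRCm38 are listed, without versions or roles, per the submitters' processing notes. Libraries came from a stranded mRNA kit, per the labels' protocols, and no source used here states the strand setting or gene annotation behind the counts. Of the gene IDs, 97.9% were found in GENCODE M21 (GRCm38), which gave positions and exon lengths.

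Tests used edgeR 4.0.16 under R 4.3.3, with TMM factors, genes kept by filterByExpr and the two-sided quasi-likelihood test. The filter asked for the CPM of 10 counts at the median depth, in at least as many libraries as the smallest group of the fit. It also asked for 15 counts in all. The p-values were adjusted over all tested genes by Benjamini and Hochberg, with a threshold of 0.05. The 6 hepatocyte libraries formed 1 fit, the 6 liver libraries another, and all 12 were fitted together for differences between responses. An SE is the fold change over the square root of F. Depth was 9640845 to 18522324 counts per library. Alternatives were RLE or no scaling factors, DESeq2 1.42.0, no count filter or one of 50, legacy dispersion, other sets of libraries in the fit, the replicate number as a block, and each library left out. The legacy setting and the values of other genes, lists, order and Hey2 bound without peritumoral replicate 2 were added after the data were seen. The fits were tested on simulated data.

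All 10 members are named, with the 2 genes of smallest p in each other pathway list and comparison, and the 3 most similar genes (mean of at least 5 CPM in a group, prior count 2) of Notch1, Jag1, Hes1 and Heyl. A gene that this rule would name is not reported here. Rbpj, and Neurl1b at 48 h in a caption, were named besides. Members and lists were chosen with earlier results of these data known. Adgre1, of the macrophage list, was not analysed here. Markers of lymphocytes, neutrophils and proliferation are given in the closing section.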

Additional observations from a re-analysis of the deposited data

Results flagged for a closer look

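The peritumoral response of Notch1 was higher than its response at 24 h after TAA by 3.32 ± 0.78 on the log2 scale (adjusted p = 0.0182), and higher than that at 48 h by 3.01 ± 0.78 (adjusted p = 0.0322), in edgeR's fit of all 12 libraries. What marks this result is that the counts of the same gene differed in their change between the 2 experiments. All 3 peritumoral libraries lay above all untreated ones, while both 24 h livers lay below both controls and the 48 h livers overlapped them. The peritumoral counts may hold plasmid RNA matching Notch1, which cannot be told apart from RNA of the resident gene. Neither change after TAA passed by itself (adjusted p = 0.077 and 0.675). Both calls of the difference were lost when a control liver or a TAA liver of that time was left out (adjusted p = 0.0549 to 0.0763 and 0.0844 to 0.127), and the 48 h call also without untreated replicate 1 or 2 (adjusted p = 0.0717 and 0.0769). The injected NICD was given in the peritumoral experiment alone, and the experiments differ also in mouse stock and in Xist (245 to 454 CPM in all livers, 378 CPM in peritumoral replicate 2 and at most 0.173 CPM in the other 5 hepatocyte libraries), and these cannot be told apart.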

How the results depend on the processing

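Without peritumoral replicate 3, Hey2 was tested and 9 members were higher around tumours, all but Notch2 (adjusted p = 0.411). Leaving out each library in turn gave 2 to 9 members higher around tumours and, over all genes, 1293 to 2657 higher and 66 to 1398 lower. At 24 h after TAA it gave 1442 to 2207 genes higher and 1379 to 2389 lower, at 48 h 3 to 6 members higher and 2011 to 3117 genes lower, and between the times 0 to 196 genes higher and 0 to 60 lower. For the difference from 24 h it gave 0 to 3 members higher, 208 to 1835 genes higher and 343 to 2478 lower, and for that from 48 h 0 to 2 members higher, 0 to 1 lower, 108 to 1585 genes higher and 185 to 2144 lower. A group left with 1 library is assumed to vary like the others.

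Around tumours, all genes lower came to 205 without scaling factors, 828 with a count filter of 50 and 2354 with all 12 libraries in the fit. That last fit gave 3 members higher and 1225 genes lower at 24 h, 2 members higher and 1698 genes lower at 48 h, and 99 higher and 32 lower between the times. Without scaling factors, 6127 genes were higher and 1228 lower at 24 h, 7661 and 971 at 48 h, and 1281 and 181 between the times. The difference from 48 h then had 0 members higher, 541 genes higher and 1919 lower, and Notch1 at 2.78 (adjusted p = 0.0583). Notch2 then passed at both times (0.71 and 0.72), Hey1 at 24 h (2.23), and Notch1 (0.62, adjusted p = 0.0232) and Hes1 (0.91) at 48 h, with the median of all genes at 0.53 and 0.68. DESeq2 gave 1006 higher and 539 lower between the times, 3 members and 2072 genes higher for the difference from 24 h, and 2 and 1608 for that from 48 h. No count filter gave 183 lower between the times, and a filter of 50 gave 2 members higher for the difference from 24 h. The cause was not tested.

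Values near 0 changed sign. Hes1 at 24 h was 0.50 without factors, 0.02 with either count filter, 0.10 with 12 libraries, 0.00 with only 4, and -0.22 to 0.16 with a library left out. Without factors Notch1 was 0.07 at 24 h, and Notch2 was 0.01 between the times and -0.19 for the difference from 48 h. Notch2 was 0.02 with RLE factors and with DESeq2 for the difference from 24 h. With a library left out, Notch2 ran from -0.12 to 0.38 around tumours, -0.21 to 0.16 at 48 h, and -0.51 to 0.14 and -0.28 to 0.35 for the differences. At 48 h Notch1 ran from -0.27 to 0.06 and Hes1 from -0.49 to 0.67. Between the times Hes1 ran from -0.48 to 0.69, Heyl from -0.03 to 0.64 and Nrarp from -0.73 to 0.39. For the difference from 24 h Jag1 ran from -0.73 to 0.44, Dll4 from -0.08 to 0.56 and Lfng from -1.06 to 0.40, and for that from 48 h Jag1 from -1.08 to 0.08.

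Pairing by replicate number was not seen in hepatocytes. Same-numbered libraries there correlated at -0.19, 0.13 and 0.11, and not every library correlated best with its own number. Each library was set against its group mean, which ties these values to each other, so a pairing is not excluded. In livers, with 2 libraries a group, the values within a pair of groups can differ only in sign. The liver values of 0.02 and 0.03 therefore cannot decide. The replicate block gave 7 members higher around tumours (Jag1 at 1.57, adjusted p = 0.0504) and 709 genes lower. For the differences it gave 4 and 3 members higher, with Jag1 at -0.11 for 24 h.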

Other observations

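Neutrophil markers (S100a8, S100a9, Ngp and Ltf) were higher around tumours, 4 of 4, with summed levels of 1.1 to 2.8 CPM in untreated and 13.6 to 31.5 CPM in peritumoral hepatocytes, and had 0 counts in both control livers. Proliferation markers (Mki67, Top2a, Ccnb1 and Cdk1) were higher in 4 of 4 around tumours, 3 of 4 at 24 h and 4 of 4 at 48 h. Their sums were 219 to 449 CPM at 48 h against 1.36 to 7.32 CPM in controls. Over all tested genes 19% were higher around tumours, 21.3% at 24 h and 25% at 48 h. None of 5 lymphocyte markers had enough counts to be tested in hepatocytes, where their sum was at most 5.29 CPM, and 1 was tested in livers.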
